A study of Arabidopsis thaliana with 3 samples.

Results

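HAT2 (locus AT5G47370, on chromosome 5 of Arabidopsis thaliana) encodes a transcription factor of the HD-Zip II family. It was followed here through the single probe that carries its name, 1 of 21939 probes in the table of values, chosen by name and locus code through the platform annotation. The gene was taken up with earlier results of these data known. Each of 3 two-colour arrays set dark-grown Col-0 seedlings, 4 days old and submerged in the auxin IAA (indole-3-acetic acid) at 10 µM with 0.1% ethanol, against Col-0 seedlings of the same age and growth in 0.1% ethanol alone. The arrays covered 20, 40 and 60 minutes, with 1 array per time and 0 replicates, so a value at a single time carries no error and no test. All seedlings had been stratified at 4 °C for 48 h and grown at 25 °C on medium with sucrose. Whole seedlings were harvested together, per the labels, so a value averages all organs, and more cells with the transcript cannot be told apart from more transcript per cell.

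HD-Zip proteins, a class found in plants, join a homeodomain that binds DNA to a leucine zipper through which they pair. Those of subfamily II mostly act as repressors of transcription, and several are known for their part in shade avoidance and in auxin responses. HAT2 itself is known in Arabidopsis seedlings as a gene whose transcript responds early to auxin, and raising its activity is known to lengthen the hypocotyl.

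The values are log2 ratios of the 2 channels of an array, so 0 means equal signal and 1 means 2-fold. The labels do not say which channel is the numerator. Positive values probably mean more transcript with IAA. IAA seedlings are channel 2 in the labels, and 15 genes of 4 auxin-related lists that leave HAT2 out were measured. Of these, 11 lay above 0 on every array, as did 12.9% of the named genes, and 1 lay below 0 on every array, as did 8.83% of the named genes. The other 3 were mixed. The lists were chosen with earlier results of these data known, so the count is not independent support for the direction. If the HAT2 probe took up 1 dye better than the other on every array, that cannot be told apart from a difference between IAA and ethanol.

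The HAT2 ratio was about 5-fold on the positive side as early as 20 minutes and stayed near that size to the end of the hour. On the log2 scale it stood at 2.33 after 20 minutes, at 2.30 after 40 and at 2.56 after 60. In linear terms these are ratios of 5.02, 4.92 and 5.88. The 60-minute array was the highest of the 3 and the 40-minute array the lowest. The median named gene stood at 0.00, 0.03 and 0.01 on the same log2 scale.

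**Figure D1:**
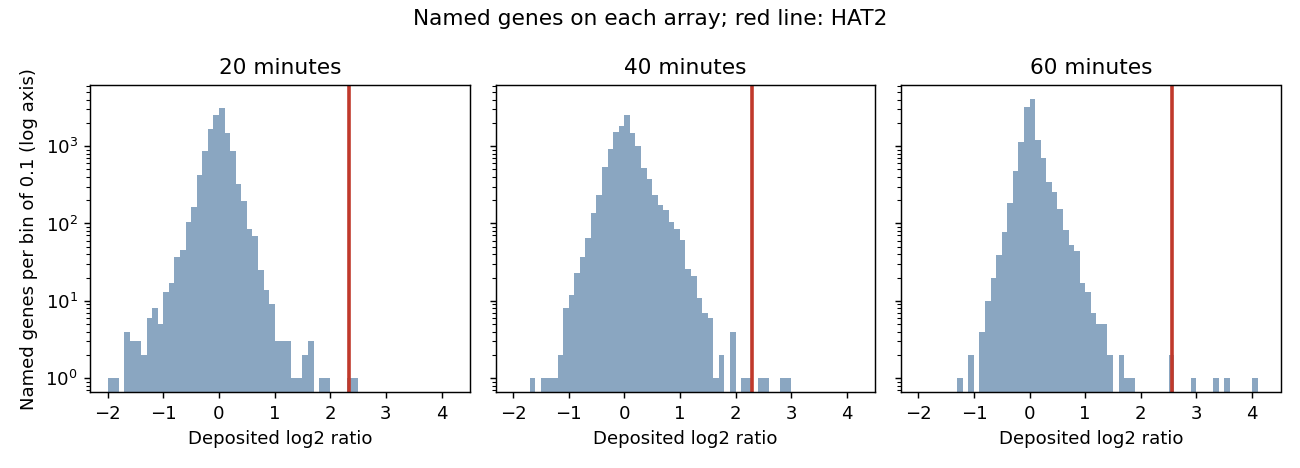
Histograms of the deposited log2 ratios of 12127 named genes on the arrays at 20, 40 and 60 minutes, in bins of 0.1 with a logarithmic count axis. The red line marks HAT2, at 2.33, 2.30 and 2.56, beyond the bulk of the genes on each array.

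Few transcripts stood as far out. HAT2 ranked 2 of 12127 named genes at 20 minutes, 5 at 40 minutes and 5 at 60 minutes, where it was tied with LBD16. With the unnamed probes included, 21859 genes and probes in all, the ranks were 2, 8 and 6. Named genes at or above 2-fold on the positive side made up 0.165% at 20 minutes, 1.2% at 40 minutes and 0.346% at 60 minutes. Those at or above 4-fold, a level set after the values were seen, numbered 2, 6 and 6. The robust SD over all probes, taken from the median absolute deviation, was 0.165 on the 20-minute array, 0.221 on the 40-minute array and 0.110 on the 60-minute array. The HAT2 ratio therefore lay 14.1, 10.4 and 23.3 robust SDs from 0.

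The genes above HAT2 differed between the times. At 20 minutes there was 1, GH3.1, an enzyme gene of the family that joins auxin to amino acids, with a log2 ratio of 2.45. Next below HAT2 came GH3.3 of the same family at 2.0, AT5G66580 at 1.80 and AT4G27190 at 1.65. The last of these stood at -0.25 and 0.00 on the later arrays, so that its high value belongs to the 20-minute array.

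At 40 minutes 4 named genes were above HAT2. They were AT5G58160 (2.90), GH3.1 (2.85), AT1G21510 (2.58) and GH3.3 (2.47). AT5G58160 stood at -0.56 at 20 and -0.32 at 60 minutes, and AT1G21510 at 0.31 and 0.00. Next below HAT2 were LBD29 (2.16), AT5G66580 (1.97) and GH3.4 (1.97).

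At 60 minutes the 4 named genes above HAT2 were GH3.3 (4.02), GH3.1 (3.54), GH3.4 (3.32) and LBD29 (2.91). LBD29 and LBD16 are transcription factor genes known from the start of lateral roots. LBD16 had the same ratio as HAT2, 2.56, and WES1 (GH3.5, 1.82) and AT5G66580 (1.70) followed. GH3.1 was thus above HAT2 on each array, GH3.3 on the later 2, and GH3.4 and LBD29 at 60 minutes. The linear ratio of GH3.3 was 16.2 at that time.

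Over the 3 times HAT2 had a mean log2 ratio of 2.39 ± 0.14 (SD over 3 time points), which is a geometric mean ratio of 5.26. The mean ranked 3 among named genes and 4 with the unnamed probes. In limma's test of the mean ratio against 0 over 21859 genes and probes, HAT2 had the lowest p of all, with a Benjamini-Hochberg adjusted p of 0.0270 (range over the alternatives 0.000575 to 1). That test made positive calls for 0.033% of named genes, 4 in all, and for 0.0869% of genes and probes. The lowest adjusted p of the range came with array weights, where positive calls over all genes and probes numbered 2057, against 19 without weights. The error of limma's test is the spread between times, which holds change over time as well as noise. An even ratio therefore passes the test more easily than a changing one. The HAT2 call was lost when the arrays were scaled to the same median absolute deviation (adjusted p of 0.700, limma), with a mean of 2.53. It was also lost when any 1 array was left out, with a mean between 2.31 and 2.44. The adjusted p was then 0.736 without the 20-minute, 0.920 without the 40-minute and 1 without the 60-minute array (limma). With 2 arrays only 1 residual degree of freedom is left, and 0 genes or probes passed, so the misses with an array left out say little about HAT2.

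The changes of the HAT2 ratio over time were small beside the ratio itself. The change in log2 ratio was -0.03 from 20 to 40 minutes and 0.26 from 40 to 60 minutes. The first of these was smaller in size than the change of the median named gene, 0.22, and the second was larger than the corresponding 0.17, and 67.9% of named genes had a smaller one. From 20 to 60 minutes the change was 0.23 for HAT2, against 0.16 in size for the median named gene, and it was smaller for 65.6% of named genes. The range over the 3 times, highest minus lowest, was 0.26 for HAT2 and 0.30 for the median named gene, and 42.9% of named genes had a smaller one.

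Among the 11 named genes with a mean log2 ratio of at least 1, HAT2 had the smallest range. AT5G66580 followed at 0.27 and WAG2, a protein kinase gene linked to auxin transport, at 0.37. AT1G68360 had a range of 0.48, AT3G51410 of 0.53, LBD16 of 0.94 and GH3.1 of 1.09. WES1, LBD29, GH3.3 and GH3.4 had ranges between 1.21 and 2.80. With the unnamed probes included, 45 genes and probes had a mean of at least 1. The unnamed probes were not put in order of range. As deposited, HAT2 and GH3.1 were the only genes or probes, of 21859, at or above 4-fold (a log2 ratio of 2) at all 3 times. That level was set after the values were seen, and GH3.3 lay just below it at 20 minutes, at 1.996. At 2-fold the same condition was met by 8 named genes, 0.066%, and by 29 genes and probes, 0.133%.

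**Figure D2:**
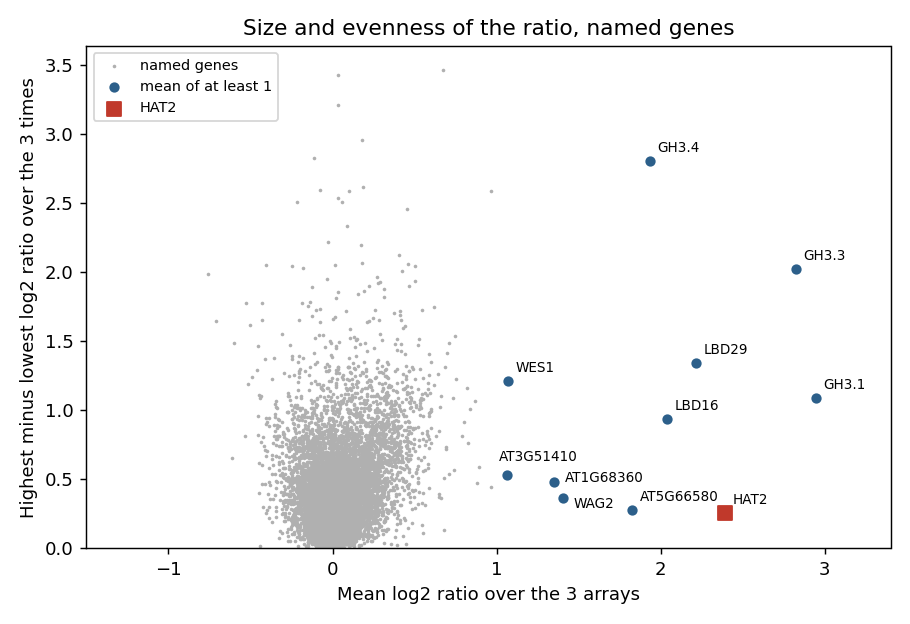
Mean log2 ratio over the 3 arrays (horizontal) against the highest minus the lowest log2 ratio over the 3 times (vertical) for 12127 named genes. The 11 named genes with a mean of at least 1 are labelled, and HAT2 (red square) has the smallest range of these, 0.26.

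This evenness rests on how the arrays are scaled, which the sources used here do not describe. With each array centred on its median, the HAT2 range was 0.27, second to AT5G66580 at 0.26. Scaled to the same median absolute deviation, the arrays gave HAT2 log2 ratios of 2.24, 1.65 and 3.70 at 20, 40 and 60 minutes, a range of 2.05 that was 6 in order among 12 genes. Quantile normalization gave 3.08, 2.15 and 2.30, a range of 0.93 that was 9 in order among 12. HAT2 stayed above 2-fold at each time, and its mean kept rank 3, under all of these scalings. Since each scaling keeps the order of genes within an array, the kept rank was largely fixed in advance and says little.

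**Figure D3:**
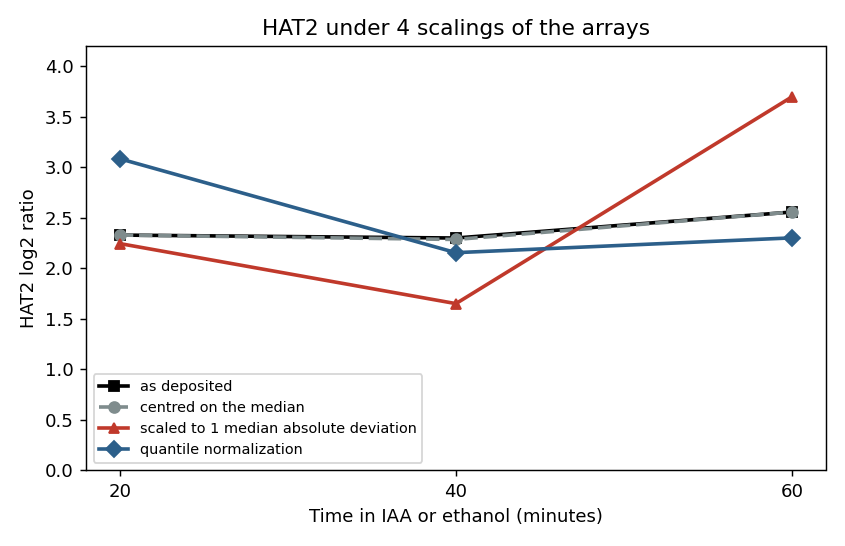
HAT2 log2 ratio at 20, 40 and 60 minutes as deposited and under 3 other scalings of the arrays, with 1 array per time. As deposited the ratio lies between 2.30 and 2.56, while scaling to the same median absolute deviation gives 1.65 to 3.70 and quantile normalization 2.15 to 3.08.

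The named genes nearest to HAT2 were ranked by Euclidean distance between their 3 log2 ratios and those of HAT2. This distance weighs the size of a ratio as well as its course over time. All of the 10 nearest were among the 11 named genes with a mean log2 ratio of at least 1. Being on the list thus mostly reflects a high ratio, and not a shared course over time. The nearest was LBD16, at a distance of 0.79, with log2 ratios of 1.62, 1.94 and 2.56. LBD29 followed at 0.84, with 1.58, 2.16 and 2.91. Both started lower than HAT2 and met or passed it at 60 minutes.

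AT5G66580 came next at a distance of 1.05 and lay below HAT2 at all 3 times, by 0.52, 0.32 and 0.86. GH3.1, at 1.13, lay above HAT2 at all 3 times, and HAT2 minus GH3.1 was -0.12, -0.55 and -0.98. GH3.3 (1.51), WAG2 (1.74), AT1G68360 (1.89), GH3.4 (1.99), AT3G51410 (2.34) and WES1 (2.41) completed the 10. WAG2, with 1.19, 1.56 and 1.46, was below HAT2 by 0.74 to 1.14. Of the unnamed probes, 0 lay nearer to HAT2 than LBD29 and 1 lay nearer than AT5G66580, with log2 ratios of 2.27, 1.90 and 1.63. Of the 10 nearest genes, 10 were shared with the arrays centred and 10 with the arrays scaled to the same median absolute deviation. After quantile normalization 9 were shared, and GH3.1 was nearest. Each of these scalings keeps the order of genes within an array. A list that mostly follows high ratios is therefore largely kept in advance, and the overlap says little about likeness to HAT2.

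**Figure D4:**
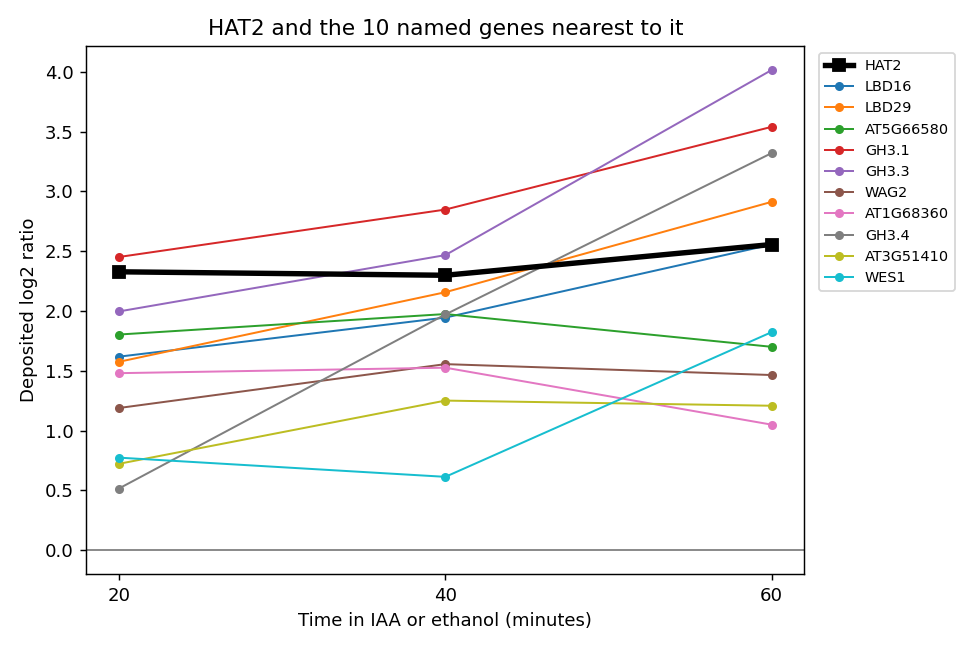
Deposited log2 ratios at 20, 40 and 60 minutes for HAT2 (thick black line, squares) and the 10 named genes with the smallest Euclidean distance to it (thin lines), with 1 array per time and no error bars. HAT2 goes from 2.33 through 2.30 to 2.56, while LBD16 and LBD29 climb from 1.62 and 1.58 to 2.56 and 2.91.

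In the order of mean ratios, HAT2 differed from the next gene above and the next below by less than the spread between times. The difference HAT2 minus gene averaged -0.43 ± 0.92 for GH3.3, the next above, and 0.18 ± 0.56 for LBD29, the next below (SD over 3 time points), and in both it changed sign within the hour. For LBD16 it was 0.35 ± 0.35, with a difference of 0 at 60 minutes. For GH3.1 it was -0.55 ± 0.43 and for AT5G66580 0.57 ± 0.27, with the same sign at each time. These differences between genes were not tested.

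Of 10 HD-Zip II genes 1, HAT2, was measured under a name. Of 48 genes of the 4 HD-Zip subfamilies 2 were measured under a name, the other being PHV, a subfamily III factor that acts in leaf polarity and vascular patterning. PHV had log2 ratios of -0.17, -0.14 and 0.00 (mean -0.10 ± 0.09, SD over 3 time points) and did not pass the test of the mean (limma, adjusted p of 1.00). Of 36 KNOX, BELL and WOX homeodomain genes and of 5 TOPLESS corepressor genes, whose proteins bind repression motifs of the kind found in HD-Zip II factors, 0 were measured under a name. The rest of these families were not analysed here, so whether other HD-Zip II transcripts moved with HAT2 cannot be said.

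Of 20 genes of shade and phytochrome signalling, a setting in which HD-Zip II factors are known to act, 2 were measured, and 0 passed the test of the mean. With 0.033% of all named genes passing, 0 of 2 says little about these genes. PIF7, a bHLH factor of the shade response, stood at 0.32, 0.56 and -0.60, and BIM1, a bHLH factor known from brassinosteroid signalling, at 0.04, -0.79 and -0.17. Neither reached 2-fold at any time, and each had both signs within the hour.

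Of 9 listed GH3 genes 6 were measured, with median log2 ratios of 0.65, 1.29 and 2.57 at 20, 40 and 60 minutes. Of the 6, 1 (GH3.1) passed the test of the mean, as did 0.033% of all named genes. At or above 2-fold were 2 of the 6 at 20 minutes, 3 at 40 and 4 at 60 minutes, where all named genes gave 0.165%, 1.2% and 0.346%. HAT2 stood above the median of the 6 measured GH3 genes at 20 and 40 minutes and beside it at 60 minutes. Of 5 measured Aux/IAA genes, whose proteins repress auxin-responsive transcription, 0 passed. This is near the 0.033% of all named genes and says little about them. At or above 2-fold were 1 of the 5 at 20 minutes (IAA31), 1 at 40 (IAA30) and 0 at 60 minutes. The 4 with means farthest from 0 were IAA30 (0.71 ± 0.31), IAA31 (0.29 ± 0.80), IAA34 (0.27 ± 0.21) and IAA18 (-0.08 ± 0.10, SD over 3 time points). IAA31 had log2 ratios of 1.19, 0.04 and -0.36, and so stood on both sides of 0 within the hour. Of 2 measured kinases of the family that acts on auxin transport WAG2 passed, and PID2 stood at a mean of 0.10 and did not pass. The calls of GH3.1 and WAG2 were near the threshold (limma, adjusted p of 0.0443 and 0.0442). They were lost when named genes alone were fitted (limma, adjusted p of 0.137 for both), where that of HAT2 was kept (adjusted p of 0.0200). The remaining named gene with a call, AT5G66580 (limma, adjusted p of 0.0386), also kept it there (0.0361). After quantile normalization all 4 passed, HAT2 with the highest adjusted p (limma, 0.0343, against 0.0233 for the others). All 4 calls were lost with any 1 array left out or with the arrays scaled to the same median absolute deviation. In those fits 0 genes or probes passed. LBD16 and LBD29 did not pass (limma, adjusted p of 0.106 and 0.216). The auxin receptors and response factors, 11 genes, had 0 measured under a name.

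The labelled material could not be checked against marker levels, since ratios hold no level of a transcript. Of 10 markers of light-grown tissue, etioplasts, root hairs and seeds, 4 were measured and 0 were at or beyond 2-fold on either side at any time. On the positive side 0.165%, 1.2% and 0.346% of all named genes reached 2-fold at 20, 40 and 60 minutes. A count of 0 among 4 genes therefore says little. LHCB4.1 and PORB, of the photosynthetic apparatus and of chlorophyll synthesis, had means of 0.07 and 0.10. The root hair expansins EXPA7 and EXPA18 had means of -0.22 and -0.35 and were negative at all 3 times, as were 8.83% of the named genes. Their part in the HAT2 ratio was not tested.

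The measured loci near HAT2 on the chromosome had ratios close to 0. Of the 5 loci on each side in the RefSeq gene table of assembly TAIR10.1, 4 were measured, AT5G47330, AT5G47340, AT5G47350 and AT5G47390. The loci that directly adjoin HAT2 on either side were not among them and were not analysed here. For the 4 measured, the log2 ratios over the 3 arrays lay between -0.25 and 0.29, and the means between 0.03 and 0.09. The 10 probes next to the HAT2 probe in probe number, 5 on each side, lay between -0.40 and 0.38. The high ratio of the HAT2 probe was not shared by adjoining probe numbers, a comparison made after the values were seen. Probe number need not follow position on the array, which was not analysed here. The comparison therefore says nothing about neighbouring spots.

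**Figure D5:**
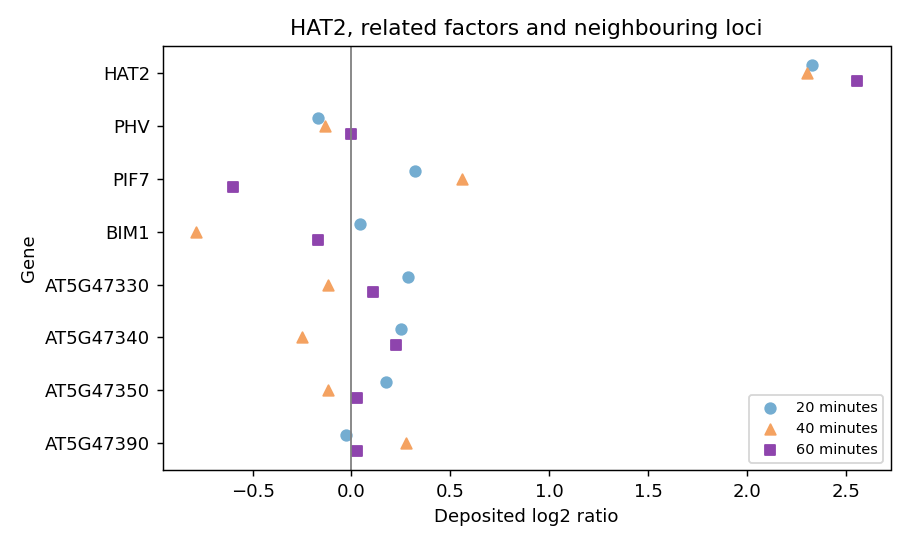
Deposited log2 ratios at 20 minutes (circles), 40 minutes (triangles) and 60 minutes (squares), 1 array each, for HAT2, the other measured HD-Zip gene (PHV), 2 shade-related factors (PIF7, BIM1) and the 4 measured neighbouring loci. HAT2 lies between 2.30 and 2.56, and the other 7 genes between -0.79 and 0.56.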

How the data were processed

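Per the labels, total RNA of ethanol seedlings was channel 1 and that of IAA seedlings channel 2 of each array. The deposited values were log2 ratios: 2 raised to each was a multiple of 0.01 for 100% of values, within a tolerance of 1e-05, so the authors' ratios had been rounded to 2 decimals. How background and dyes were treated, the normalization and the array model were not given in the sources used here. No spot intensities were analysed here, so signal over background is unknown, and precision is limited by having 3 arrays. Values missing on the 3 arrays numbered 9, 10 and 7, and columns of other samples 0.

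Names came from the platform annotation, brought up to date with the RefSeq gene table of TAIR10.1: 12195 had 1 gene (12142 matched RefSeq), 1 had several and 9743 are unnamed here. Probes of a gene were averaged, which left 12127 named genes and 9732 unnamed probes measured on every array. No build is named by the values, so no coordinates are given.

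The mean ratio was tested with limma 3.58.1 in R 4.3.3 (intercept, empirical Bayes, two-sided p adjusted by Benjamini-Hochberg over all 21859 genes and probes, calls under 0.05), after a check on simulated data. The arrays are not replicates, and the labels are silent on whether each time had its own culture. Figures were drawn with Python 3.11.15. The gene, the 13 lists (176 locus codes, written from memory and all in the RefSeq table) and the rules were chosen with earlier results of these data known. Genes named were HAT2, the other measured HD-Zip genes, the 10 genes nearest to HAT2, and the measured loci among 5 on each side. Also named were the genes above HAT2 and the 3 next below it, at each time and by mean. In each other list, the 4 measured members farthest from 0 were named.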

Additional observations from a re-analysis of the deposited data

How the results depend on the processing

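The alternatives were scaling, centring or quantile normalization of the arrays, named genes alone, leaving out an array, array weights and unaveraged probes. HAT2 stayed on the positive side in all of them. Its log2 ratio at 20 minutes was 3.08 after quantile normalization. At 40 minutes it was 1.65 with the arrays scaled to the same median absolute deviation and 2.15 after quantile normalization, and at 60 minutes 3.70 and 2.30. The mean was 2.53 after that scaling and missed the threshold, and it lay between 2.31 and 2.44 with 1 array left out, each time missing the threshold; with 2 arrays only 1 residual degree of freedom is left, and these misses say little. The range over time was 2.05 after scaling and 0.93 after quantile normalization, and lay between 0.029 and 0.257 with 1 array left out, the smallest without the 60-minute array. With unnamed probes included, HAT2 ranked 8 at 40 and 6 at 60 minutes and 4 by mean. With 1 array left out the rank by mean lay between 2 and 5, and with array weights it was 5. Positive calls over all genes and probes numbered 19, against 0 after scaling, 2 among named genes alone, 0 with any 1 array left out, and 2057 with array weights (6.7 for the 60-minute array, 0.396 and 0.377 for the others). Negative calls numbered 0, against 794 with array weights; at an unadjusted p under 0.05 there were 231 negative and 769 positive genes and probes (limma). The causes were not tested. No paired analysis was possible because there is 1 array per time and so no replicate number to use as a block, beyond the pairing of IAA with ethanol that each ratio already holds.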
